A study of Cuscuta campestris with 8 samples.

Results

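In Cuscuta campestris grown on an artificial host, 168 genes of intermediate abundance were at least 8 times more abundant in the haustorial region than in the shoot. They were chosen from 32855 genes with enough counts to test, out of 45825 in the files. A member had a mean of at least 10 and under 100 CPM over all 8 libraries (CPM is counts per 1000000 counts of a library, with library sizes scaled by TMM factors). Its mean in the haustorial region was at least 8 times its mean in the shoot, with 0.1 CPM added to both, and every haustorial value lay above every shoot value. The label given by this rule, strong enrichment in the haustorial region, therefore holds by construction. The difference between the tissues is a description of the chosen genes, and nothing is read from tests of it.

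The comparison was between 4 libraries of the haustorial region and 4 libraries of the vegetative shoot, each made from tissue pooled from 3 or 4 plants. All plants started as 3 cm shoot tips from parasites raised on Beta vulgaris and were attached to an artificial host. They carried no living host tissue, and the liquid medium reached them through the haustoria and contained an auxin, 1-naphthaleneacetic acid (NAA, 3 mg per litre), together with a cytokinin, 6-benzylaminopurine (BA, 1 mg per litre). After 2.5 days of light enriched in far-red and 12.5 days of full-spectrum light, tissue was taken at day 15. The haustorial region bore healthy holdfasts and had been cut free of shoots and lateral meristems, whereas the shoots were new growth with stem and meristems, from which the 5 mm of stem nearest the haustoria had been removed. The haustorial region thus differed from the shoot in organ, in the absence of visible meristems, in tissue age and in contact with the medium, and these cannot be told apart.

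Cuscuta is a rootless, leafless parasitic vine. Its haustoria are lateral organs that form where the stem coils around a host: a holdfast glues the stem to the surface, and a penetrating part grows inward, loosens host cell walls and connects to the host's xylem and phloem. Haustorium formation in Cuscuta can be set off by far-red light and touch, and cytokinin acts in it, so the organ can develop without signals from a living host. The haustorial region sampled here holds stem tissue as well as the haustoria. In bulk tissue, fewer cells of a type and less RNA per cell cannot be told apart.

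Gene names do not accompany the identifiers in the files, and 0 of the 45825 identifiers matched the reference table, so no member can be given a function, a sequence or a place in the genome. Markers of haustorium, meristem, green, epidermal or vascular tissue could not be looked up for the same reason. The members Cc012810 and Cc015414 are given by identifier, and other members are described by rank or value.

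The 168 members were 0.952% of the 17651 tested genes with a mean of 10 to under 100 CPM. The requirement that the tissues do not overlap removed no gene, since all 168 genes of this abundance with a ratio of at least 8 also had every haustorial value above every shoot value. Over all tested genes, 28.6% had every haustorial value above every shoot value. By edgeR's quasi-likelihood test all 168 members were called higher in the haustorial region (Benjamini-Hochberg adjusted p under 0.05), against 31.2% of all tested genes, and this follows from the way they were chosen. Their median fitted log2 fold change was 4.57, with a range of 3.04 to 12.49, and the median over all tested genes was -0.02. Every member passed the filter on low counts. The filter can be passed through the haustorial region alone, where 167 of the 168 had at least 100 counts in every library.

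**Figure D1:**
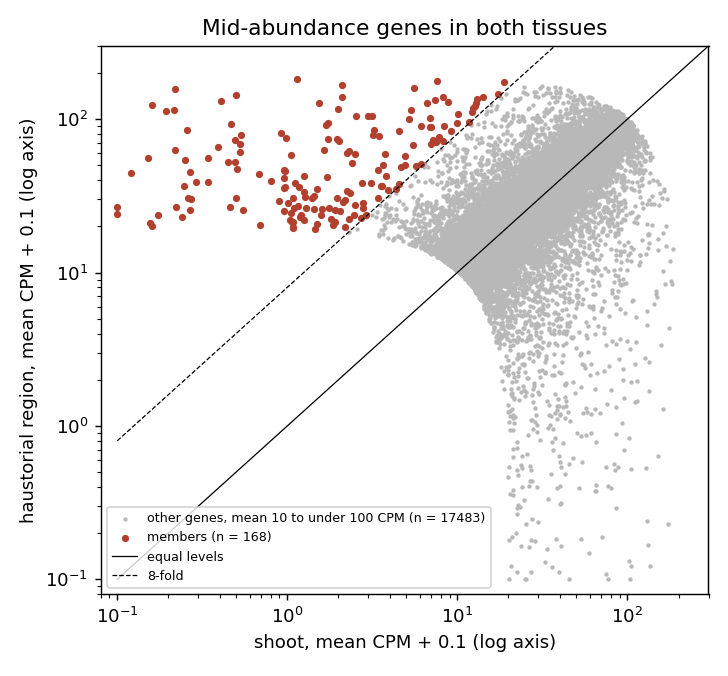
Mean level of each tested gene with a mean of 10 to under 100 CPM, haustorial region (vertical) against shoot (horizontal), both as CPM + 0.1 on log axes; red points are the 168 members, grey points the other genes, the solid line marks equal levels and the dashed line an 8-fold difference. The members lie above the dashed line in a band of haustorial levels from 19.2 to 184 CPM, while their shoot levels spread from 0 to 18.7 CPM.

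The rule bounds the haustorial level on both sides and lets the shoot level reach 0, which shapes the ranges that follow. Mean haustorial levels ran from 19.2 to 184 CPM with a median of 46.5 CPM, and mean shoot levels from 0 to 18.7 CPM with a median of 1.64 CPM. Unless given by summed counts, ratios here and below are those of the rule, with 0.1 CPM added to both means. The ratio had a median of 22.6 and reached 773. It lay between 8 and 16 for 63 members, between 16 and 32 for 40, between 32 and 64 for 23 and between 64 and 128 for 17. A further 14 members had ratios of 128 to 256, and 11 had ratios above that. The ratio showed no steady course with haustorial level: its median was 18.1 in the 28 members under 25 CPM, 24.3 in the 60 members of 25 to 50 CPM, 26.5 in the 48 members of 50 to 100 CPM and 22.5 in the 32 members above 100 CPM.

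Most members were still detected in the shoot. In 127 of the 168, every shoot library had at least 10 counts, and in 85 the level was at least 1 CPM in every shoot library. Another 40 members stayed under 1 CPM in every shoot library. A count of 0 in at least 1 shoot library was seen in 12 members, and 2 members had no count in any shoot library. For 114 members the lowest haustorial value was at least 8 times the highest shoot value, so that the 8-fold difference held between any pair of libraries and not just between the means.

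Summed over all 168 members, haustorial libraries 1 to 4 stood at 10308, 10883, 10541 and 9458 CPM, against 543, 543, 432 and 466 CPM in shoot libraries 1 to 4. The haustorial libraries lay close together and far above the shoot libraries. The means were 10298 ± 608 CPM (SD, n = 4) in haustorial and 496 ± 55.9 CPM in shoot libraries. As a share of all counts of a library, the members took 0.963% ± 0.036 in haustorial and 0.0528% ± 0.0051 in shoot libraries.

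The member with the largest ratio, Cc012810, was measured at 125, 131, 140 and 97.4 CPM in haustorial libraries 1 to 4, against 0.0829, 0.0386, 0.0329 and 0.083 CPM in shoot libraries 1 to 4. Its shoot values rest on 3, 1, 1 and 2 counts, near the limit of what these libraries can show. Summed counts were 12103 in haustorial and 7 in shoot libraries. Over scaled library sizes this is a ratio of 2058, with an exact 95% interval of 998 to 5119 that covers counting error only. With 0.1 CPM added to both means, as in the rule, the ratio is 773. The fitted log2 fold change was 10.89 ± 0.21 (SE). Larger fitted changes were found in the 2 members with no shoot count (12.49 and 12.33) and in 1 other member (10.98). The first rank of Cc012810 therefore depends on the added 0.1 CPM.

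The member of highest haustorial level, Cc015414, was measured at 168, 189, 209 and 170 CPM in haustorial libraries 1 to 4, against 0.608, 1.08, 0.723 and 1.74 CPM in shoot libraries 1 to 4. Its haustorial pools lay closer together in relative terms (coefficient of variation 10.4%) than its shoot pools (49.2%), where library 4 was the highest. The ratio of summed counts was 189 (exact 95% interval 157 to 230, counting error only), from 18125 haustorial and 114 shoot counts. The fitted log2 fold change was 7.52 ± 0.23 (SE).

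**Figure D2:**
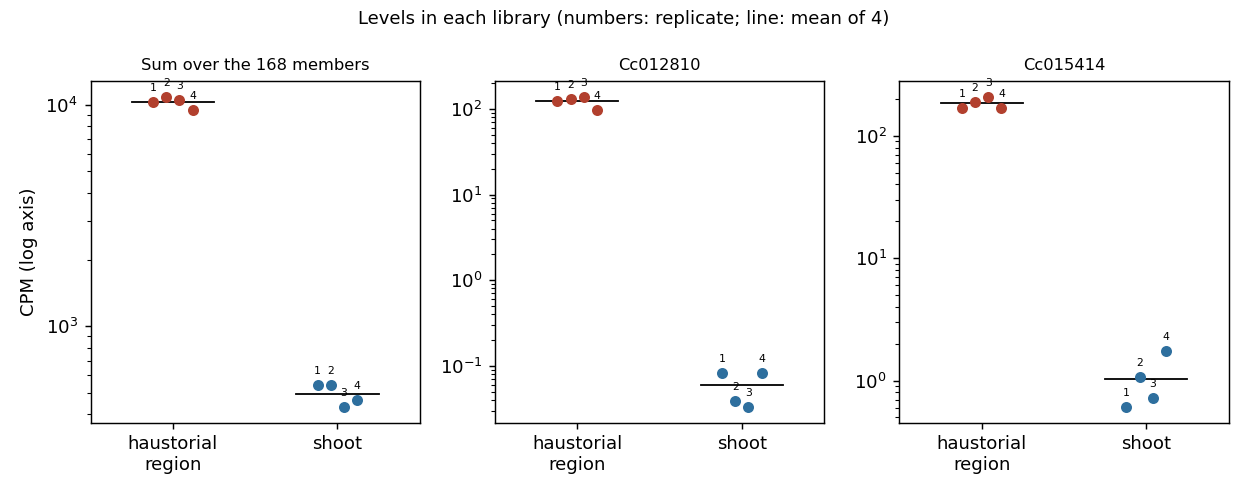
CPM in each library on log axes, for the sum over the 168 members, for Cc012810 and for Cc015414; points are libraries with their replicate number, and lines are means of 4. The tissues are far apart in each panel, and shoot values of Cc012810, at 0.0329 to 0.083 CPM, come from 1 to 3 counts each.

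Both members with no shoot count were of modest haustorial level. One was measured at 24.96, 32.6, 26.6 and 22.8 CPM in haustorial libraries 1 to 4, against 0 counts in each shoot library. The other was measured at 27.8, 28.4, 24.2 and 15.6 CPM in haustorial libraries 1 to 4, again against 0 counts in each shoot library. With 3 counts put at the 4 shoot libraries together, the haustorial level was at least 1035-fold higher for the first and at least 926-fold higher for the second. The exact 95% interval used for the ratios above, which is stricter, has lower limits of 842 and 752. At the other end, the member of highest shoot level stood at 174 ± 11.6 CPM in haustorial and 18.7 ± 2.44 CPM in shoot libraries (SD, n = 4 each), 9.3 times as high in the haustorial region by summed counts (exact 95% interval 8.89 to 9.73).

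The thresholds of the rule cut through continuous distributions. The member with the smallest ratio, 8.11, had means of 35.1 CPM in haustorial and 4.24 CPM in shoot libraries. The nearest gene left out had a ratio of 7.99, with means of 63.9 CPM in haustorial and 7.91 CPM in shoot libraries. Between ratios of 7 and 8 lay 26 genes, against 11 members between 8 and 9. The lowest mean over all libraries among members was 10.1 CPM, and the nearest gene below the limit, otherwise meeting the rule, was at 9.94 CPM with a ratio of 134. At the upper limit these values were 96.5 CPM inside and 100.1 CPM outside. The same ratio and separation were met by 253 genes of lower mean and 56 genes of higher mean.

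Because the choice of members used all 8 libraries, it was repeated without each library in turn, and the library left out was then read. Genes chosen without haustorial library 1, 2, 3 or 4 numbered 160, 158, 164 and 172. In the library not used for the choice, each of them lay above every shoot value, and 154, 150, 152 and 148 of them were at least 8 times the shoot mean. The lowest fold in a left-out haustorial library was 1.94, in library 4, and the lowest in the other 3 was 5.36. Choices made without shoot library 1, 2, 3 or 4 held 187, 184, 170 and 174 genes, each of which lay below every haustorial value in the left-out shoot library. Of these, 160, 158, 163 and 167 were at least 8-fold apart. A library left out at the choice thus showed the 8-fold difference for 85.6% to 96.2% of the genes chosen without it. Only the left-out library was free of the choice, since the libraries of the other tissue had all been used in it.

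Members varied more between the haustorial pools than other genes of like level. The rule did not use this spread, except that 1 high pool can lift a mean past a threshold. Over the 4 haustorial pools the coefficient of variation had a median of 17.9% in members (quartiles 11.1% and 27.1%). It was 9.1% (quartiles 6.26% and 12.8%) in the 11642 other tested genes whose haustorial mean lay in the members' range. Counting error alone would give medians of 2.98% and 3.34%. The gap was seen on both sides of 40 CPM: 18.3% in members against 9.14% in other genes below that level, and 15.7% against 9.04% above it. Without haustorial library 4 the medians were 12.8% in members and 8.6% in other genes.

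The spread was also set beside genes with smaller or opposite differences between the tissues. In the 1038 genes of the same haustorial range that were 2 to 8 times higher in the haustorial region, with no overlap, the median coefficient of variation over haustorial pools was 11.5%. In the 5365 genes whose tissue means lay within 1.25-fold it was 8.54%. The mirror of the rule picks 382 genes enriched in the shoot at the same abundance. Over the shoot pools, where those genes are abundant, their median was 9.89%, against 5.99% in the 12172 other tested genes of their shoot range. The mirror genes thus also varied more than other genes of like level in the tissue where they are abundant, and shoot pools varied less than haustorial pools in the other genes. These are descriptions over genes, which are not replicates, and no test of the differences was made.

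By a chi-square test of the counts of the 4 haustorial pools against their scaled library sizes, 161 of the 168 members differed between pools by more than counting error (Benjamini-Hochberg adjusted p under 0.05 over all tested genes). Over all tested genes the share was 60.5%, and it was 79.3% in the other genes of the members' haustorial range. The test compares libraries, not conditions. The variance between haustorial pools was 33.5 times the counting variance in the median member and 7.97 times in the median other gene of the range. The highest of the 4 pools was at least 2 times the lowest in 32 members (19.0%), against 199 of the other genes (1.71%). At the stable end, the pools lay within 1.25-fold for 36 members (21.4%) and for 6608 other genes (56.8%).

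**Figure D3:**
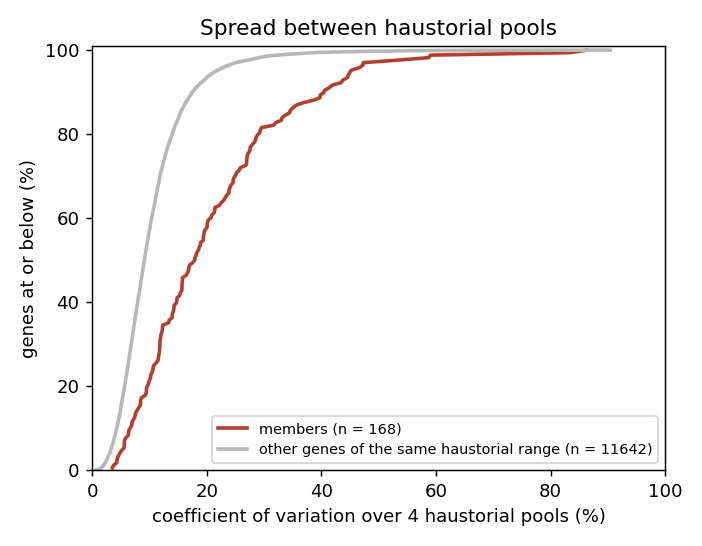
Cumulative share of genes (vertical, %) by coefficient of variation over the 4 haustorial pools (horizontal, %), for the 168 members in red and the 11642 other genes of the same haustorial range in grey. The members' curve lies to the right, with a median of 17.9% against 9.1%, and 42.9% of members but 6.53% of other genes have at least 20%.

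The 5 members with a coefficient of variation of at least 50% in the haustorial region did not share one order of pools. The most variable was measured at 87.3, 233, 69.2 and 26.5 CPM in haustorial libraries 1 to 4, against 2.88, 4.55, 2.23 and 1.87 CPM in the shoot. The next had 32.9, 3.26, 15.8 and 54.4 CPM in haustorial libraries 1 to 4, against 0.138, 0.0386, 0.0986 and 0.208 CPM in the shoot. Pool 2 was thus the highest for the first and the lowest for the second, whose pools spanned 16.7-fold. The third stood at 45.6, 15.8, 33.8 and 75.8 CPM in the haustorial region, against 1.41, 0.849, 0.69 and 1.66 CPM in the shoot, again highest in pool 4 and lowest in pool 2. The fourth had 77.1, 37.6, 14.5 and 47.5 CPM in the haustorial region against 2 counts in shoot library 4 and 0 in the other shoot libraries, and its lowest pool was pool 3. The fifth had 30.9, 42.3, 41.3 and 7.38 CPM in the haustorial region, against 0.138, 0.27, 0.0657 and 0.166 CPM in the shoot. All 5 were chosen for their spread, and each had its lowest haustorial value above its highest shoot value, as the rule requires of every member. By contrast, the most even member stood at 20.4, 19.2, 20.9 and 20.3 CPM in the haustorial region, against 3.07, 1.54, 1.35 and 1.08 CPM in the shoot.

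Much of the spread ran between pools 2 and 4. On log2 values centred on each member's haustorial mean, 73.9% of the variance between the pools lay along the first principal component, with weights of 0.648 for pool 2, -0.75 for pool 4, 0.133 for pool 3 and -0.0314 for pool 1. In the other genes of the range the first component held 52.0%, with its largest weights also on pool 2 (0.7) and pool 4 (-0.55). Pool 2 was highest and pool 4 lowest in 47 members (28.0%), against 11.5% of the other genes. The opposite order, pool 4 highest and pool 2 lowest, was seen in 29 members (17.3%), against 11.3% of the other genes. The axis therefore ran in both directions within the members. Pool 2 was above pool 4 in 103 of the 168 (61.3%), with a median log2 ratio of 0.17. The share was 51.5% in the other genes of the range, but 68.4% in the 1038 genes that were 2 to 8 times higher in the haustorial region, with a median log2 ratio of 0.16. In those 1038 genes the first component held 62.9%, with weights of 0.677 on pool 2 and -0.733 on pool 4, so the direction of the axis is not particular to the members. The median absolute log2 difference between the pair was 0.45 in members and 0.16 in the other genes. Pools 1 and 3 also lay above pool 4 in 104 (61.9%) and 111 members (66.1%), against 52.9% and 51.9% of the other genes. Pool 2 was above pool 3 in 51.2% of members. Pool 4 was the lowest pool in 79 members (47.0%), against 28.4% of the other genes. Pool 1 was above pool 2 in 42.9% of members and above pool 3 in 44.6%. The shares were thus most uneven in the comparisons with pool 4, and not in the pair of pools 2 and 4 alone.

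Divided by this difference, 43 members were at least 1.5 times higher in pool 2 than in pool 4, 19 were at least 1.5 times higher in pool 4, and 106 lay between. The first set summed to 2702, 3701, 2878 and 1746 CPM in haustorial libraries 1 to 4, and the second to 1041, 661, 948 and 1452 CPM. The remaining 106 summed to 6565, 6521, 6716 and 6260 CPM. Pools 1 and 3 lay between pools 2 and 4 in both opposed sets, while the sum of the 106 was nearly level. The opposed sets had median ratios between the tissues of 21.7 and 19.4, and the 106 had 23.6. Because the sets were defined on pools 2 and 4, those sums are a description.

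**Figure D4:**
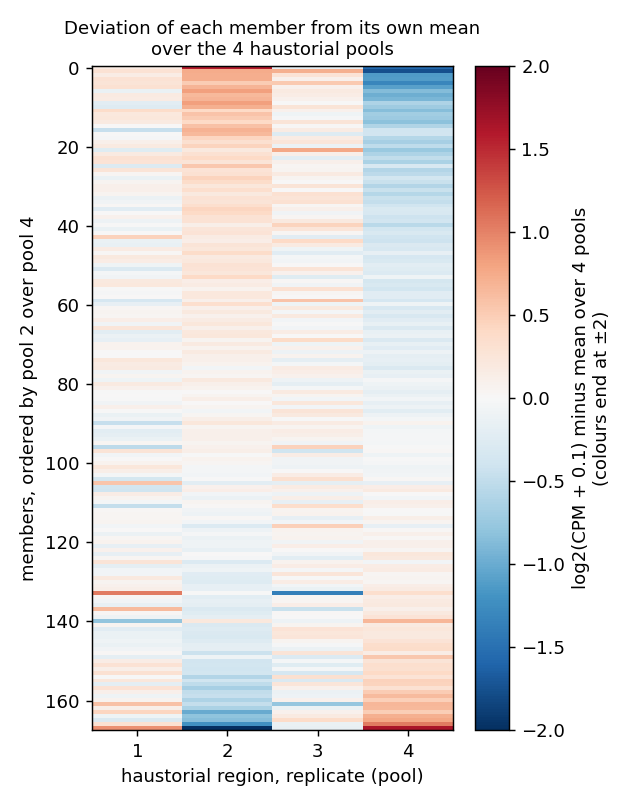
Deviation of each of the 168 members (rows, ordered by pool 2 over pool 4) from its own mean over the 4 haustorial pools (columns), as log2(CPM + 0.1), red above and blue below the mean, with colours ending at ±2. The top rows are high in pool 2 and low in pool 4, the bottom rows are the reverse, and pools 1 and 3 deviate less.

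Pools 2 and 4 did not stand apart in depth, with totals of 24420753 and 25672222 counts, between the 23465088 of pool 1 and the 31246017 of pool 3. Of all pairs of libraries within a tissue, however, this pair differed most, at 30.5 times the counting variance. Haustorial pools 3 and 4 came next, at 21.6 times. The summed level of the 382 shoot-enriched genes of the mirror rule was 1011, 1207, 1113 and 1116 CPM in haustorial libraries 1 to 4, against 20639 to 22551 CPM in shoot libraries. It was highest in pool 2, where the larger opposed set of members was also highest, and its part in the spread between pools was not tested. Scaling by library totals alone left 98 of the 168 members higher in pool 2 than in pool 4. The median log2 ratio was then 0.098, against 0.17 with TMM, and the opposed sets held 41 and 23 members, against 43 and 19. With RLE, another scaling of library sizes, 104 members were higher in pool 2, with a median log2 ratio of 0.19. The other genes were not counted under these scalings.

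In the shoot, where members are scarce, the coefficient of variation over the 4 pools had a median of 33.3% in the 166 members with any count. Counting error alone would give a median of 14.8%. Of these members, 97 (58.4%) differed between shoot pools by more than counting error in the chi-square test, against 44.9% of all tested genes. That comparison is not matched for level. The 376 mirror genes with any haustorial count had a median of 32.7% over haustorial pools, where they are scarce. Counting error alone would give them 14.8%, and 59.6% of them differed by more than counting error. Members in the shoot thus came close to mirror genes in the haustorial region. The share was 79.4% in the 63 members with ratios under 16, and 25% in the 40 members with ratios of at least 64, which had the fewest shoot counts. Shoot library 3 was below library 1 in 119 of the 168 members, with a median log2 difference of 0.35 between library 1 and library 3. It was 0.03 in the other genes of the members' haustorial range. Those genes were not matched for shoot level, and counting error alone would give them a median of 3.19% over shoot pools. No label links a shoot pool to the haustorial pool of the same number.

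Some members carried neighbouring identifiers. The number in the identifier was not used by the rule, and the sources used here do not say how it relates to place in the genome. Of the 168 members, 8 (4.76%) had another member at the next number up or down, against 260 of the 32687 other tested genes (0.795%) that had a member next to them. Within 2 numbers these were 16 members (9.52%) and 1.58% of other genes, and within 5 numbers 21 members (12.5%) and 3.81%. The other 147 members had no member within 5 numbers.

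The 260 tested non-members next to a member were called higher with a change of 2-fold or more in 49 cases (18.8%; edgeR, haustorial region over shoot, adjusted p under 0.05), against 9.34% of all tested genes. They were called lower by at least 2-fold in 36 cases (13.8%), against 15.3% of all tested genes. A ratio of at least 8 was reached by 19 of them (7.31%), against 477 of all tested genes (1.45%), which include the 168 members themselves. The other shares over all tested genes also include the members, whereas the neighbours do not. Their median log2 fold change was 0.13, and that of all tested genes was -0.02. With neighbours up to 5 numbers away, 12.8% were called higher by at least 2-fold. These values come from the same contrast as the rule, and reads shared between near-identical neighbouring copies could link their counts.

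The largest group held 4 members within 8 consecutive numbers. Its first member had 150, 145, 124 and 105 CPM in haustorial libraries 1 to 4, against 0.415, 0.309, 0.296 and 0.208 CPM in the shoot. Its second had 107, 112, 131 and 100.0 CPM in the haustorial region, against 0.0276, 0, 0.0986 and 0.249 CPM in the shoot. Both were strongly different between the tissues, with ratios of 323 and 580 after 0.1 CPM was added to both means. The member at the fourth place had 46.1, 31.3, 72.7 and 96.2 CPM in the haustorial region, against 1.22, 1.2, 3.55 and 2.86 CPM in the shoot, and the one at the eighth place had 63.9, 66.1, 71.7 and 49.8 CPM, against 0.277, 0, 0.0329 and 0.166 CPM. The fourth place was highest in pool 4 and the first place lowest there, so the neighbours did not share their order of pools. The 2 other tested identifiers within the group were far less different. One stood at 10.7 ± 0.92 CPM in haustorial and 7.74 ± 0.74 CPM in shoot libraries (SD, n = 4 each; edgeR adjusted p = 0.00225). The other stood at 3.28 ± 0.26 CPM in haustorial and 2.81 ± 0.60 CPM in shoot libraries and did not pass the test (edgeR adjusted p = 0.315).

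**Figure D5:**
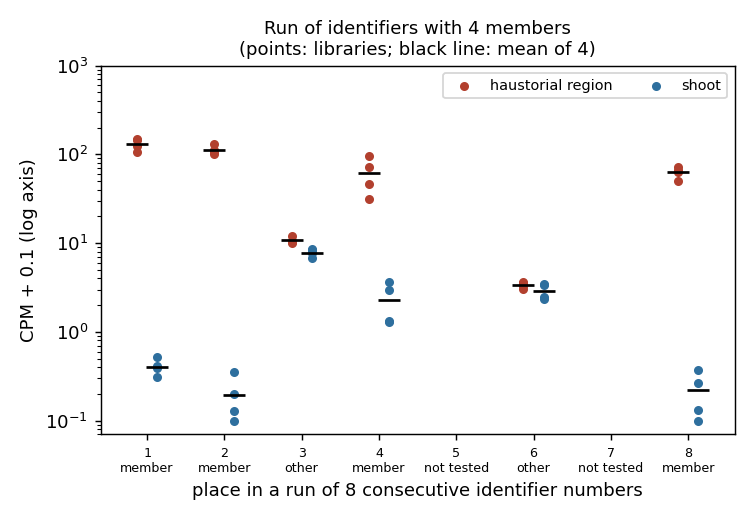
CPM + 0.1 (log axis) at each place of the group of 8 consecutive identifier numbers that holds 4 members, with haustorial libraries in red, shoot libraries in blue and means of 4 as black lines; 2 places were not tested. The members at places 1, 2, 4 and 8 are far apart between the tissues, while both other tested genes lie within 2-fold.

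A group of 3 members lay within 5 numbers. Between its members stood a gene that exceeded the abundance limit, at 1040 ± 342 CPM in haustorial and 65.8 ± 26.8 CPM in shoot libraries (SD, n = 4 each; edgeR adjusted p = 1.53e-05). The other gene between them was lower in haustorial libraries, at 18.7 ± 3.62 CPM, than in shoot libraries, at 23.7 ± 2.81 CPM (edgeR adjusted p = 0.0392). Another 7 groups held 2 members each. In one of them the pair stood at 52.5 ± 10.2 and 54.1 ± 13.5 CPM in the haustorial region, against 0.395 ± 0.052 and 0.151 ± 0.074 CPM in the shoot. As a description over 4 pools, the haustorial deviations of that pair correlated at 0.98. The other pairs stood at 0.96, 0.83, 0.81, 0.77, 0.33 and -0.70, so one pair ran in opposite directions. All 4 genes numbered between the pair that correlated at 0.98 were lower in the haustorial region. Their ratios were 0.428 to 0.669 (edgeR adjusted p of 0.00521 to 0.01). In another pair the levels were 166 ± 23.2 and 139 ± 10.3 CPM in the haustorial region, against 2.01 ± 0.51 and 1.98 ± 0.24 CPM in the shoot. The gene numbered between them was itself higher, at 1102 ± 127 CPM in haustorial and 362 ± 29.7 CPM in shoot libraries (edgeR adjusted p = 3.71e-08).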

How the data were processed

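Polyadenylated RNA was measured in 8 samples, grouped by their titles. The authors deposited raw gene counts, 1 file per sample, with totals of 22334600 to 34247925. Per the submitters' processing notes, STAR 2.5.2b was among the tools. No source used here gives the counter, strand setting, build or annotation, so antisense, overlapping and near-identical genes are uncertain.

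In R 4.3.3, genes were kept by filterByExpr (about 10 counts in each of 4 libraries, 15 in total) and scaled by TMM. Tissues were compared over all 8 samples with edgeR 4.0.16 (robust quasi-likelihood F test, Benjamini-Hochberg adjustment over 32855 genes). The scripts were tested on simulated data. A library's 3 counts correspond to 0.0829 to 0.135 CPM. Within a tissue, pairs of libraries differed by 5.45 to 30.5 times the counting variance, and each counted as 1 sample. No label says how pools were separated beyond their plants, so the spread between them may be partly technical.

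The members and lists were chosen with earlier results of these data known. By rule, 2 members were named: those of largest ratio and of highest haustorial mean. Functional lists could not be linked to identifiers and were not used. Alternatives were scaling, filters, the added CPM, DESeq2 1.42.0, a replicate block and left-out libraries.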

Additional observations from a re-analysis of the deposited data

How the results depend on the processing

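The rule found 150 to 172 genes under other scalings, filters and added CPM, and 158 to 187 with each library left out, of which 151 to 164 were among the 168. Library totals alone gave 153 genes, of which 149 were among the 168. That scaling moved the median change over all tested genes by -0.19 on the log2 scale, and that of the members to 4.39, with the lowest member at 2.85. All members that could be tested were called higher under each alternative: 167 of 167 under the stricter filter (5 CPM or more in 4 libraries or more) and 168 in the others, DESeq2 included. This follows from their choice. With the replicate block, 168 were called. Deviations of same-numbered libraries correlated at -0.06 to 0.04, and for 0 of 8 libraries was the own number the best match. Correlations between different tissues cannot show whether such pools shared plants. No label gives this pairing, so it has no known basis.

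The members' median coefficient of variation was 12.8% to 19.1% over haustorial pools and 28.9% to 31.6% over shoot pools with each library left out. Members differing between pools beyond counting error numbered 148 to 154 and 68 to 85 with 1 library less, which lowers the power of the test. Members with a member as neighbour numbered 16 within 2 numbers and 21 within 5, against 8 at 1, since wider limits include the narrower ones. Without shoot library 4, 3 members had no shoot count. Comparisons of pools 2 and 4 under other scalings, and of other genes with libraries left out, were chosen after the data were seen. Depth limits statements on shoot levels near 0.1 CPM.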

Other observations

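In 5 of the 168 members (2.98%), 1 haustorial pool stood apart from the other 3 by Dixon's criterion, against 631 of the 11642 other genes of the same haustorial range (5.42%). The criterion is set to be met by chance in about 5% of genes, a rate that was not checked on these data. The pool stood above the others in 3 of these members and below them in 2.

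The haustorial spread of members was also read by their shoot level. The median coefficient of variation over haustorial pools was 18.8% in the 59 members under 1 CPM in the shoot, 17.2% in the 76 members of 1 to 5 CPM and 14.2% in the 33 members above that. Their median haustorial levels were 39.6, 35.6 and 101.5 CPM. Pool 2 was above pool 4 in 66.1%, 61.8% and 51.5% of them.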
